A study of Homo sapiens with 6 samples.

Results

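The miRNA entries numbered miR-6715 to miR-6895 were followed in small-RNA libraries of exosomes, the small vesicles that cells release, from the established human colon cancer line HCT116. Members were chosen by their deposited values: all entries of that number block, either arm and any letter, with a value above 0 in at least 1 of the 6 deposited tables. Of 354 listed rows of the block, 119 met this rule, out of 686 detected entries among 2588 rows in each table. Detection itself was thus the selecting measure and is given as a description. Just inside the rule lay 46 members with a single read in a single library, and just outside it lay 235 rows at 0 in all 6 libraries, for which a share of 0.000466% of the 644115 reads is the most that 0 reads allow.

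Cells of both groups received an siRNA by microporation, either a control siRNA (siCTL, n = 3 libraries) or an siRNA against PRDX3 (siPRDX3, n = 3), which encodes a mitochondrial peroxiredoxin. After 40 h they spent 24 h in medium whose serum was free of nanoparticles, exosomes were taken from it with a kit, and their RNA, extracted with TRIzol LS, went into NEBNext small-RNA libraries. A closing sentence of the design text names HUVECs and an siRNA against another gene; here the sample titles, which fit the stated cell line, were followed. Separate cultures are not stated, so every p-value reflects spread among libraries that may be technical only. The design asks whether the exosomal miRNAs differ with PRDX3 knockdown, whose extent a miRNA table cannot show. Recovered miRNA reads ran from 40146 in siCTL 1 to 230946 in siPRDX3 1, so that 0 reads leave room for a share of 0.00747% and 0.0013%, respectively (3 reads of the total). Intervals and limits cover counting error only, since reads copied by PCR without molecular identifiers are not independent molecules.

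The libraries siCTL 1 and siCTL 2 stood apart from the others. They lacked 30 and 23 of the 80 entries abundant enough for a test, while each of the other libraries lacked 0 to 8. A single entry, miR-4451, took 49.4% and 76.9% of their reads, against 11.8% to 47.7% in the other libraries. They thus had the fewest reads left for other entries, and the part of this in the gaps was not tested. The 8 epithelial and intestinal miRNAs used to check the cell type (the miR-200 family with miR-141 and miR-429, and miR-192, miR-194 and miR-215) had 3 and 4 reads in these 2 libraries, against 1447 in siCTL 3 and 701, 11 and 202 in siPRDX3. miR-429 was at 0 in all 6. The colon markers were thus nearly absent from siCTL 1, siCTL 2 and siPRDX3 2. The total share of reads and the fits of single members are given below with and without siCTL 1 and siCTL 2.

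A mirtron is a miRNA whose hairpin is made from an intron. Splicing, and not the Drosha nuclease, releases at least one end of the hairpin, and Dicer then cuts it into a 5p and a 3p arm, either of which can be loaded into Argonaute. In a conventional mirtron the hairpin is the whole intron; in a tailed mirtron it shares only one end with the intron and the remaining stretch is trimmed away. The 5' end of an intron carries the GU donor and the 3' end the pyrimidine-rich tract and AG acceptor, so 3p arms that reach the acceptor end in AG. Mirtrons are as a rule expressed at low levels, and the miR-6715 to miR-6895 numbers were given mainly to candidates from mirtron catalogues.

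The mature sequences below are those of the entries on which the results turn, taken from a RefSeq table (GRCh38.p14). That table held 106 of the 119 members, and a member outside it is not thereby absent from RefSeq. The sequences are written 5' to 3' with the seed, bases 2 to 8, in capitals. The first set comprises 3p entries found in all 6 libraries, the second 5p entries found in 4 to 6 libraries, and the third the entries that were abundant in a single library, except miR-6875-5p.
miR-6794-3p: cUCACUCUcagucccucccu
miR-6769b-3p: cCCUCUCUgucccacccauag
miR-6836-3p: aUGCCUCCcccggccccgcag
miR-6748-3p: uCCUGUCCcugucuccuacag
miR-6737-3p: uCUGUGCUucaccccuacccag
miR-6894-5p: aGGAGGAUggagagcugggccaga
miR-6815-5p: uAGGUGGCgccggaggagucauu
miR-6797-5p: aGGAGGGAaggggcugagaacagga
miR-6834-3p: uAUGUCCCaucccuccauca
miR-6821-3p: uGACCUCUccgcuccgcacag
miR-6833-3p: uUUCUCUCuccacuuccucag
miR-6731-3p: uCUAUUCCccacucuccccag
miR-6858-5p: gUGAGGAGgggcuggcagggac
miR-6823-5p: uCAGGGUUgguagggguugcu

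The 5p entries are rich in G and the 3p entries are rich in C and U, and most of the 3p entries shown end in ag. The 106 members with a sequence had 106 distinct seeds, so no 2 of them shared one, while 5 shared a seed with an undetected entry of the block and 32 with an entry outside it. miR-6797-5p, for example, has the seed of miR-1249-5p, and miR-6858-5p begins with the gu of its intron's donor.

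The genome positions fitted the name of a mirtron-rich set. In GENCODE release 29 on GRCh38, 148 of the 163 block hairpin loci listed as hairpins in the RefSeq table (90.8%; copies at several loci counted separately) lay within 5 bases of at least 1 end of a same-strand intron. The last base of the hairpin was exactly the last base of the intron for 144 of them (88.3%), whereas 11 began at the first base of the intron. Most were thus flush with the acceptor end alone (134 of 163), 10 spanned the intron from end to end and 4 were flush with the donor end alone. The median intron that held a block hairpin was 338 bases long, and the 10 introns spanned were 74 to 117 bases long. Among hairpins numbered up to 1000, 3 of 478 (0.628%) were flush with an intron end, and among those numbered from 3000 to below 6000, called later entries here, 34 of 587 (5.79%). The 12 hairpins of earlier, well-known mirtrons (miR-877 and miR-1224 to miR-1229, miR-1233, miR-1234 and miR-1236 to miR-1238) all spanned their introns. Within the block, 85 of 90 hairpins with reads (94.4%) and 63 of 73 without (86.3%) were flush with an intron end. Reads were summed only over arms that the RefSeq table held. The miR-6879 hairpin, flush with the acceptor end, was therefore counted as without reads, although miR-6879-5p had 1 read. These counts describe catalogued positions and carry no test.

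**Figure D1:**
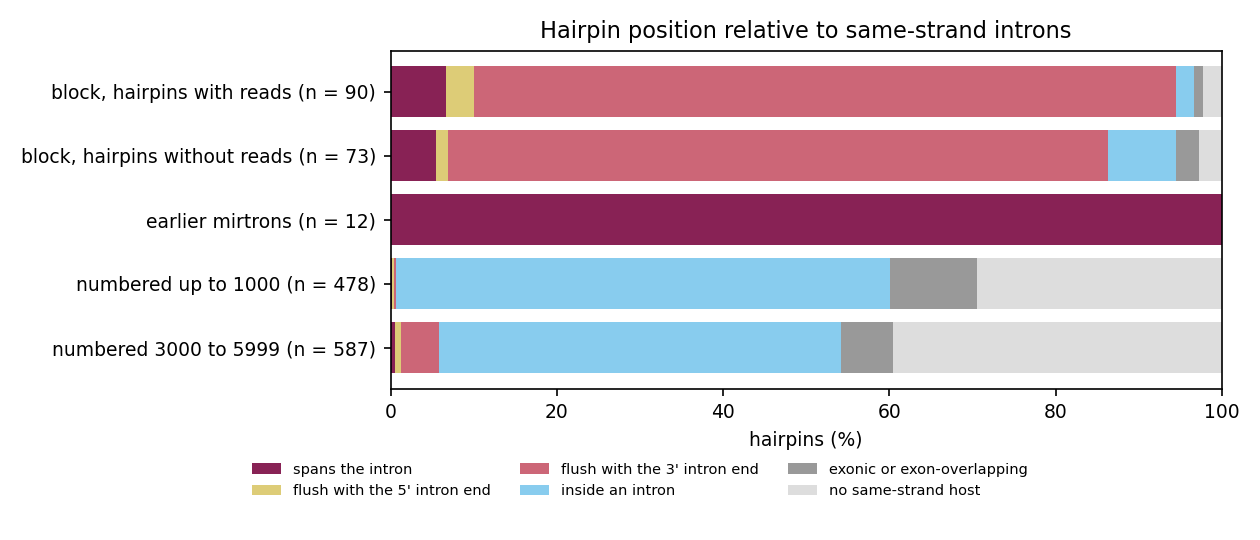
Horizontal bars give, for 5 sets of hairpins, the percentage in each position relative to same-strand introns, with n hairpins per set; flush means within 5 bases. Hairpins of the block are mostly flush with the 3' intron end (134 of 163), the earlier mirtrons span the whole intron (12 of 12), and hairpins numbered up to 1000 lie mostly elsewhere.

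Base composition followed the arms. The 49 5p members with a sequence had a median of 50% G and 13% C, against 27.3% G and 20.8% C in 629 5p entries outside the block. The 55 3p members had a median of 47.6% C and 13.6% G, against 23.8% C and 22.7% G in 640 3p entries outside it. C and U together made up a median of 76.2% of the 3p members, as they do in the tract before an acceptor, against 54.5% outside. Of the 55 3p members 43 (78.2%) ended in AG, read on the sense strand only, against 67 of 640 (10.5%) 3p entries outside the block. Among block entries without reads 73 of 100 (73%) did. The AG end was present in 27 of 32 3p members seen in 1 library, 12 of 16 seen in 2 or 3 and 4 of 7 seen in 4 or more. Few 5p members began with GU (5 of 49), whereas 8 of 11 5p entries of the earlier mirtrons did.

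**Figure D2:**
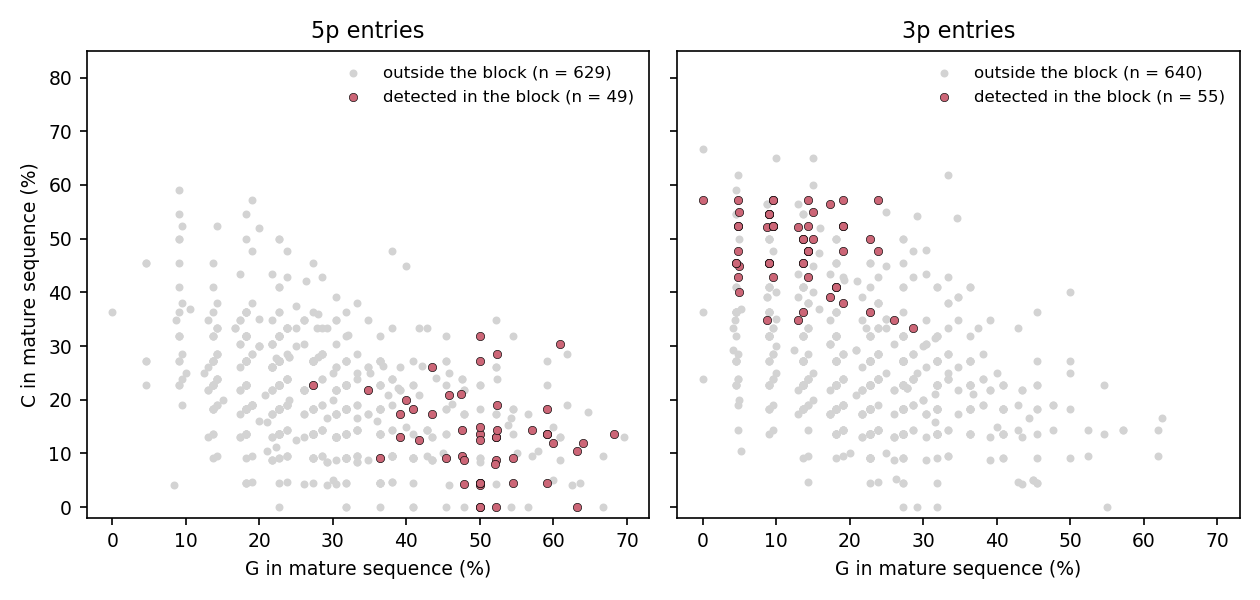
Each point is a mature entry, with its percentage of G on the horizontal axis and of C on the vertical axis, for 5p entries (left) and 3p entries (right); red points are detected block entries and grey points are entries outside the block. Detected 5p members lie at a median of 50% G and detected 3p members at a median of 47.6% C.

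Together the members took 2925 of 644115 reads (0.454%). The siCTL libraries 1, 2 and 3 held 22, 33 and 55 of the members, and the siPRDX3 libraries 1, 2 and 3 held 38, 29 and 34. This made up 11.4% to 17.4% of all entries detected in a library. The groups overlapped, at a mean of 36.7 ± 16.8 members for siCTL against 33.7 ± 4.51 for siPRDX3 (SD over 3 libraries each; p = 0.9 by two-sided exact permutation, 0.9 after adjustment for the 3 measures compared, where 0.1 is the lowest p that 6 libraries allow). The direction rested on siCTL 3: without that library siPRDX3 lay above siCTL by 6.17 members. Thinned to the 40146 reads of the smallest library, the numbers were 22, 23.1 and 31.8 in siCTL and 13.8, 17.3 and 26.4 in siPRDX3 (means of 100 draws; exact permutation p = 0.3). At this depth siCTL 3 held the most members and siPRDX3 1 the fewest, and the groups still overlapped. When miR-4451, which dominated siCTL 2, was left out before thinning to 18713 reads, the numbers were 21.2, 33 and 22.7 in siCTL and 9.49, 16 and 23.1 in siPRDX3 (exact permutation p = 0.3). siCTL 2 then held the most, siPRDX3 1 again the fewest, and the groups overlapped. Of the listed rows of the block 33.6% were detected, against 25.9% of let-7 and entries numbered up to 1000 and 24.6% of later entries. Of the members detected in a library, 44.1% to 55.3% had a single read there.

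The share of reads was the measure on which the groups separated. Members took 0.568% of reads in siCTL 1 (95% Clopper-Pearson interval 0.497 to 0.646), 1.03% in siCTL 2 (0.962 to 1.1) and 0.824% in siCTL 3 (0.775 to 0.876). They took 0.228% in siPRDX3 1 (0.209 to 0.248), 0.0972% in siPRDX3 2 (0.0786 to 0.119) and 0.304% in siPRDX3 3 (0.265 to 0.348). All 3 siCTL libraries lay above all 3 siPRDX3 libraries. The means were 0.807% ± 0.232 and 0.21% ± 0.105 (SD over 3 libraries each; p = 0.1 by two-sided exact permutation, 0.3 after adjustment), so the difference did not pass the threshold of 0.05, which 3 against 3 libraries cannot reach. In bulk exosomal RNA, fewer vesicles carrying an entry and fewer copies per vesicle cannot be told apart.

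The order held without miR-4451 in the denominator and without the leading member of each library. Without miR-4451, the entry that took 11.8% to 76.9% of a library, the shares were 1.12%, 4.46% and 0.986% against 0.258%, 0.186% and 0.507%. Without the leading member of each library they were 0.409%, 0.586% and 0.554%, compared with 0.136%, 0.0693% and 0.16% (p = 0.1 by exact permutation). This left other entries abundant in a single library in place. Among them were miR-6821-3p with 333 reads in siCTL 2, miR-6833-3p with 190 in siCTL 3 and miR-6875-5p with 210 in siPRDX3 1. With siCTL 1 and siCTL 2 left out, siCTL 3 alone still lay above all 3 siPRDX3 libraries, and the difference of siPRDX3 minus siCTL was −0.614 percentage points.

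The separation was not seen among the sparse or the recurrent members alone, 2 subsets chosen after seeing the data. Summed over members with fewer than 100 reads in all, the shares were 0.409%, 0.154% and 0.119% in siCTL and 0.039%, 0.0662% and 0.158% in siPRDX3, and the groups overlapped (exact permutation p = 0.3). Summed over the 12 members found in at least 4 libraries, they were 0.458%, 0.119% and 0.176% against 0.0139%, 0.0672% and 0.215%, which overlapped too (exact permutation p = 0.3). Erythrocyte miRNAs (miR-451a and miR-486-5p, with miR-144-3p at 0) were also higher in each siCTL library, at 5.43%, 4.73% and 3.96% against 1.05%, 3.46% and 1.99%. Their part in the result was not tested. The other marker lists overlapped between the groups. Leukocyte and platelet miRNAs took 0% to 0.406%, with 3 of 6 at 0 (miR-142-3p, miR-150-5p and miR-223-3p), and endothelial ones took 0% to 0.218%, with miR-126-5p at 0. Fibroblast and smooth muscle miRNAs took 0% to 0.00707%, with 3 of 4 at 0 (miR-145-5p, miR-199a-3p and miR-214-3p), and miR-122-5p of liver took 0.0593% to 9.63%.

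**Figure D3:**
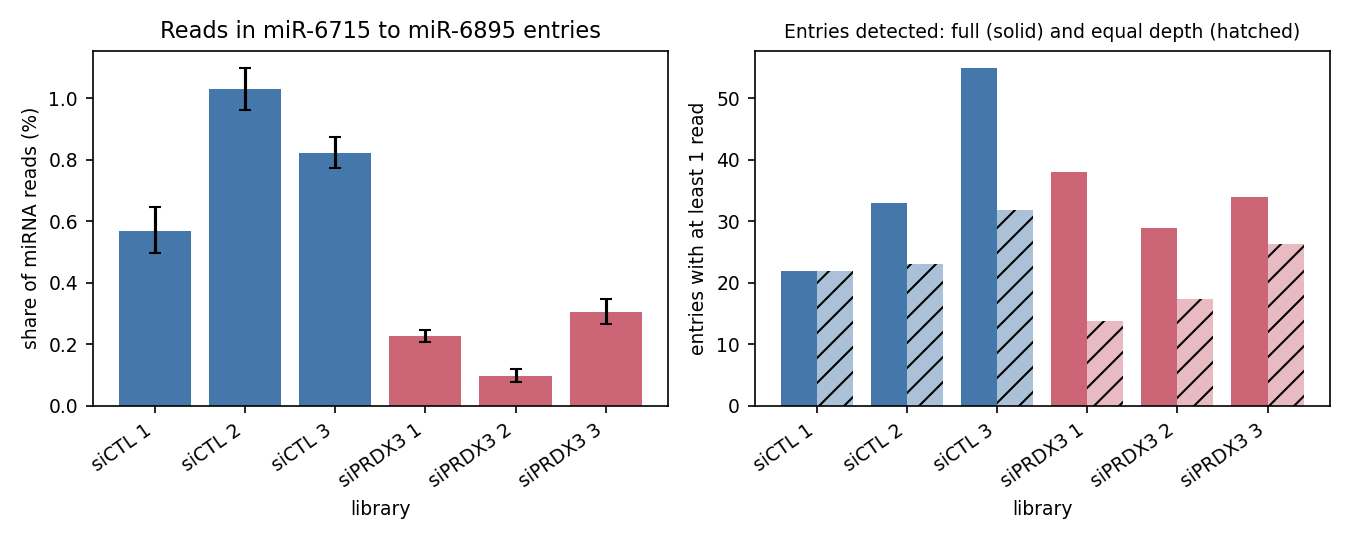
Left: percentage of each library's miRNA reads in block entries, with 95% Clopper-Pearson intervals as error bars; right: number of block entries with at least 1 read at full depth (solid bars) and at equal depth (hatched, mean of 100 draws). Blue is siCTL and red is siPRDX3. The shares of the 3 siCTL libraries (0.568% to 1.03%) lie above those of the 3 siPRDX3 libraries (0.0972% to 0.304%), while the numbers of entries overlap.

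Recurrence between libraries was low. Of the 119 members 71 (59.7%) were seen in 1 library, 30 in 2, 6 in 3, 4 in 4, 2 in 5 and 6 in all 6 libraries. Thus 18 (15.1%) recurred in at least 3 libraries, against 98 of 243 (40.3%) let-7 and entries numbered up to 1000, 53 of 222 (23.9%) later entries and 197 of 686 (28.7%) detected entries in all. At equal depth 14.1% of the members detected recurred so, against 29.2% of all entries. The sets differ in abundance, with a median of 2 reads in all per member and 18 per entry numbered up to 1000, so recurrence was also compared within classes of reads. For 2 to 9 reads in all, 36% of 50 members were seen in 1 library, against 42.4% of 229 entries in the whole series. For 10 to 49 reads, 18.2% of 11 members were, against 27% of 74 entries. For at least 50 reads, 41.7% of 12 members were, against 12.9% of 171 entries. The whole series includes the members. Below 50 reads, members were thus in a single library somewhat less often than entries of the whole series. From 50 reads on they were so more often. None of these comparisons was tested. Pairs of libraries shared 9 to 17 members within siCTL, 9 to 16 within siPRDX3 and 8 to 18 between the groups. The medians were 10, 15 and 11 shared members, and the ranges overlapped. siCTL 3 and siPRDX3 1, the deepest libraries, shared 18 members, which were 32.7% and 47.4% of their lists.

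**Figure D4:**
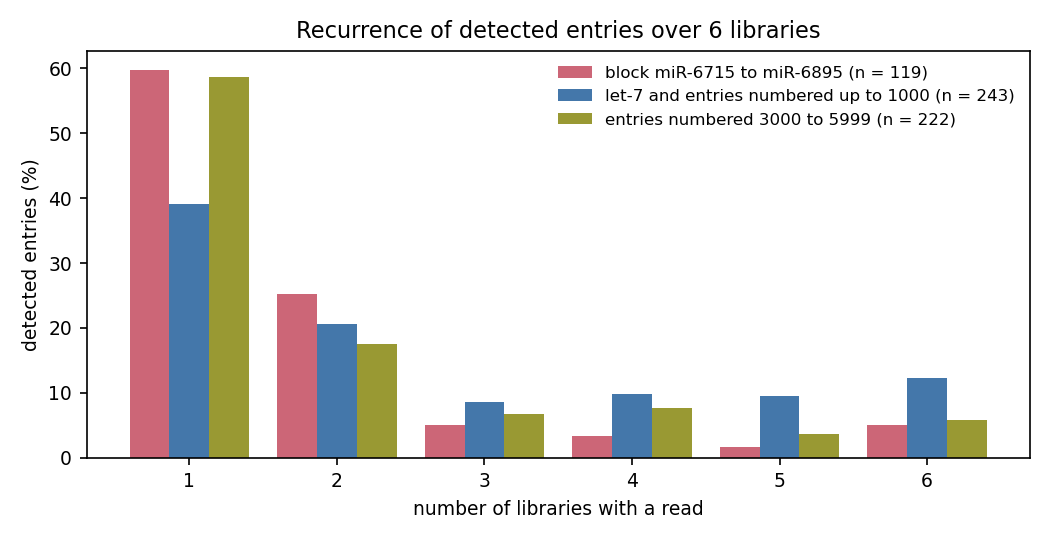
Bars give the percentage of detected entries (vertical axis) that had a read in 1, 2, 3, 4, 5 or all 6 libraries (horizontal axis), for the block, for let-7 with entries numbered up to 1000, and for later entries (numbered from 3000 to below 6000). In the block 59.7% of entries were seen in 1 library and 5.04% in all 6, against 39.1% and 12.3% of entries numbered up to 1000.

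The 6 members found in every library had 9 to 140 reads in all, 5 of them 3p entries. miR-6894-5p, from an 88-base intron of the histone demethylase gene KDM5C (mature sequence on chromosome X, 53198917 to 53198940, minus strand), was read 64, 15 and 19 times in the siCTL libraries and 14, 27 and 1 times in the siPRDX3 libraries, in the order 1, 2, 3 used throughout. Its highest level was in siCTL 1 and its lowest in siPRDX3 3, and the groups overlapped. A second KDM5C intron holds miR-6895, whose 3p arm had 18 reads, all in siPRDX3 1, a library in which miR-6894-5p had 14. miR-6794-3p, from an 80-base intron of the microtubule-associated kinase gene MAST1 (chromosome 19, 12852306 to 12852325, plus strand), had 20, 26 and 12 reads against 5, 12 and 14. It was the most evenly spread of the members with at least 50 reads, with 29.2% of its reads in its top library.

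miR-6769b-3p, from an intron of the innate immune kinase gene IKBKE (chromosome 1, 206474844 to 206474864, plus strand), had 39, 15 and 2 reads against 4, 3 and 5. miR-6836-3p, from the sorting nexin gene SNX8 (chromosome 7, 2257515 to 2257535, minus strand), had 24, 2 and 4 against 1, 2 and 5. Both were highest in siCTL 1, the shallowest library, and the groups overlapped for both. miR-6748-3p, from TMEM179B (chromosome 11, 62789865 to 62789885, plus strand), had 11, 4 and 3 reads against 3, 4 and 3, and miR-6737-3p, which lies on chromosome 1 (153962351 to 153962372, minus strand), had 1, 1 and 1 against 1, 1 and 4. The last of these was present in every library at the edge of detection. The mature sequences of miR-6836-3p and miR-6748-3p also lie in annotated transcripts of their host genes that keep this stretch. Reads of the 2 entries cannot be told apart from fragments of those transcripts.

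The 6 members found in 4 or 5 libraries had 25% to 61% of their reads in their top library, a range that overlapped the 29.2% to 63.2% of the 6 found in all libraries. miR-6815-5p, from an intron of the collagen XVIII gene COL18A1 (chromosome 21, 45478271 to 45478293, plus strand), had 22, 31 and 5 reads against 0, 1 and 11. It was high in siCTL 1 and siCTL 2, and siPRDX3 3 lay above siCTL 3. miR-6797-5p, from an intron of the ribosomal protein gene RPS19 (chromosome 19, 41869632 to 41869656, plus strand), had 0, 1 and 164 reads against 0, 2 and 102. It was abundant in 1 library of each group and nearly absent from the other 4. miR-6717-5p had 1, 0 and 4 reads against 2, 4 and 1. Its hairpin overlaps an exon of NDRG2 rather than lying in an intron, which sets it apart from most of the block. miR-6792-3p, from an intron of the microtubule minus-end gene CAMSAP3, had 0, 0 and 5 against 1, 6 and 2. It did not reach 10 reads in any library. miR-6865-3p, from the transcription activator gene CAMTA2, had single reads in siCTL 1, 2 and 3 and siPRDX3 2. miR-6729-3p, from the invasion inhibitor gene MIIP, is named for its abundance and was in 3 libraries, with 24, 0 and 0 reads against 0, 2 and 20.

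**Figure D5:**
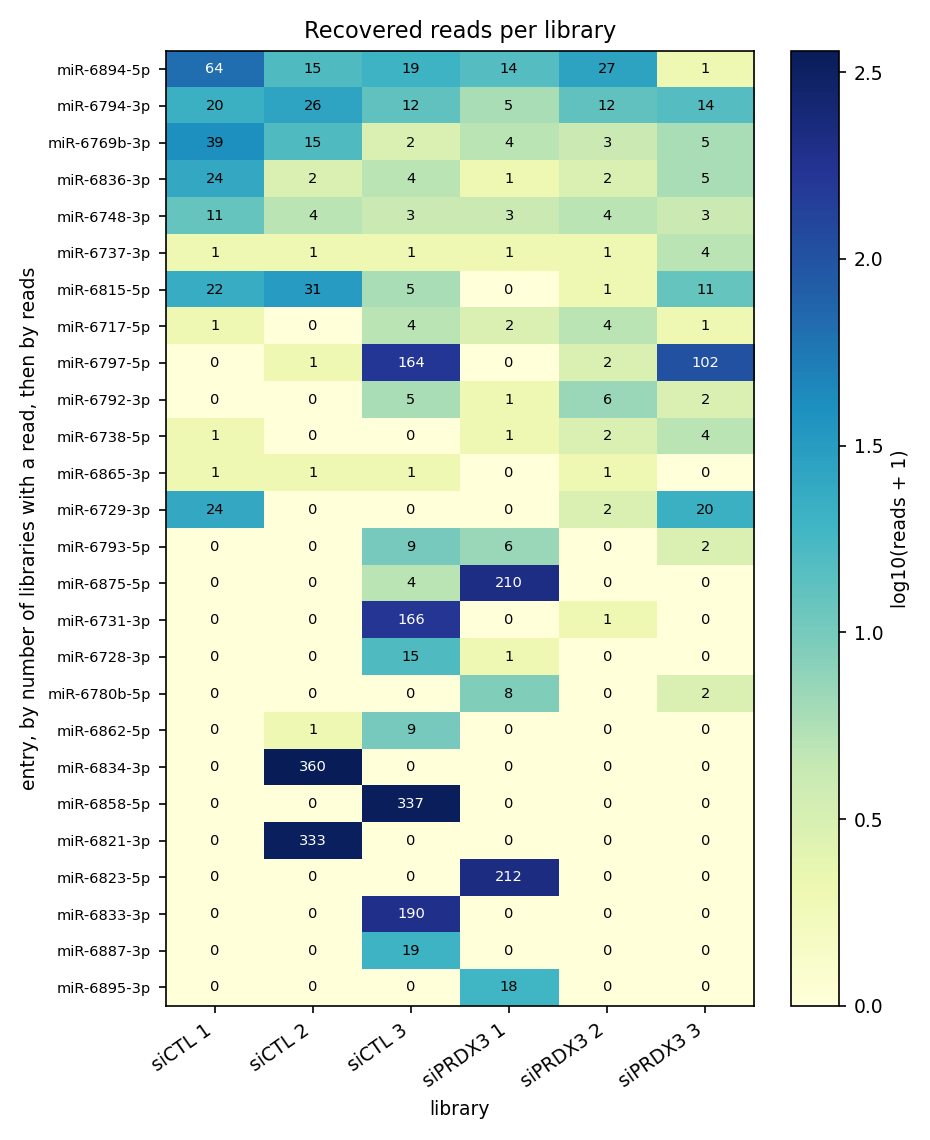
Recovered reads of block entries with at least 10 reads in all or with a read in at least 4 libraries, 1 row per entry and 1 column per library; the colour gives log10(reads + 1) and the number in each cell is the read count. Entries at the top recur in all 6 libraries at low counts, while entries at the bottom have up to 360 reads in a single library and 0 in the other 5.

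Most of the reads came from entries abundant in a single library. The 9 members with at least 100 reads held 76% of member reads, and 7 of these 9 (77.8%) had at least 90% of their reads in 1 library. Outside the block this was so for 54 of 146 entries with at least 100 reads (37%). The 7 entries held 1813 reads, or 62% of the member reads. They lay in siCTL 2 (2 entries), siCTL 3 (3) and siPRDX3 1 (2), and none of them had more than 4 reads in another library.

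In siCTL 2 the leading entries were miR-6834-3p, from an 81-base intron of the prefoldin subunit gene PFDN6 (chromosome 6, 33290305 to 33290324, plus strand), with 360 reads, and miR-6821-3p, from a 74-base intron of the kinase gene PIM3 (chromosome 22, 49962919 to 49962939, plus strand), with 333. They took 0.445% (95% Clopper-Pearson interval 0.4 to 0.493) and 0.411% (0.368 to 0.458) of that library and had 0 reads in the other 5. Both hairpins span their whole intron, the arrangement of a conventional mirtron. However, the mature sequence of miR-6834-3p also lies in an annotated PFDN6 transcript that keeps this intron. Its reads could come from the hairpin or from that transcript.

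In siCTL 3 the leading entry was miR-6858-5p, with 337 reads (0.27%, interval 0.242 to 0.301), from the donor end of an intron of FAM50A, which encodes a nuclear protein (chromosome X, 154450320 to 154450341, plus strand). It was followed by miR-6833-3p with 190 reads, from an intron of the ubiquitin ligase gene RNF5 (chromosome 6, 32179856 to 32179876, plus strand), and by miR-6731-3p with 166, from an intron of the transcription factor gene RUNX3 (chromosome 1, 24919345 to 24919365, minus strand). Of these, miR-6731-3p alone had a read elsewhere, 1 in siPRDX3 2. In siPRDX3 1 miR-6823-5p, from an intron of PFKFB4, a regulator of glycolysis (chromosome 3, 48549996 to 48550016, minus strand), had 212 reads and 0 elsewhere, and miR-6875-5p had 210, with 4 in siCTL 3. siCTL 1, siPRDX3 2 and siPRDX3 3 held no such entry. Their leading members, miR-6894-5p with 64 and 27 reads and miR-6797-5p with 102, were also present in other libraries.

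The 2 arms were detected about equally often. The block lists 176 5p, 174 3p and 4 rows without an arm, of which 58, 59 and 2 were detected. The 5p members had 1400 reads and the 3p members 1520. Detected 5p members made up 40.9%, 42.4% and 45.5% of members in siCTL and 57.9%, 44.8% and 50% in siPRDX3, which overlapped (42.9% ± 2.31 against 50.9% ± 6.58, SD over 3 libraries each; p = 0.2 by two-sided exact permutation, 0.3 after adjustment). By reads the 5p share ran from 7.43% in siCTL 2 to 90.1% in siPRDX3 1, with 40.8% and 56.2% in siCTL 1 and siCTL 3 and 48.9% and 68.4% in siPRDX3 2 and siPRDX3 3. The leading pair of entries was 3p in siCTL 2 and 5p in siPRDX3 1.

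For most hairpins only 1 arm was seen. Of 100 hairpins with reads 19 had both arms detected, and in 10 of these both arms occurred in the same library. The partner arm of each of the 15 members with the highest mean share had at most 1 read in all 6 libraries together. For miR-6823, miR-6833 and miR-6858 that single partner read came from a library in which the abundant arm had none. Sparse hairpins with both arms included miR-6780b with 10 5p and 5 3p reads, miR-6809 with 5 and 8, and miR-6760 with 8 and 2, and a further 10 hairpins had 1 to 6 reads per arm. The 5p arm had more reads in 7 of the 19 hairpins, the 3p arm in 9, and 3 had equal numbers.

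Few members could be tested for a difference between the groups one by one. In limma's fit of all 80 testable entries, 0 passed an adjusted p of 0.05 (0% of those tested), 6 (7.5%) had an unadjusted p under 0.05, and the smallest adjusted p was 0.184. limma-voom also called 0, with 12 at an unadjusted p under 0.05. Of the 119 members 3 entered the fit, 0 passed, and 0 had an unadjusted p under 0.05. All 3 had a lower mean in siPRDX3, where 36.2% of all tested entries had a fold change below 0. On the deposited scale, log2(value + 1), miR-6815-5p stood at 9.11, 9.28 and 5.35 in siCTL and 0, 3.02 and 6.23 in siPRDX3, and siPRDX3 minus siCTL was −4.83 ± 2.48 (log2, SE; adjusted p = 0.491 by limma). For miR-6894-5p the levels were 10.65, 8.23 and 7.25 against 5.41, 7.59 and 2.95, and the difference was −3.39 ± 2.0 (adjusted p = 0.504 by limma). For miR-6794-3p they were 8.97, 9.02 and 6.59 against 3.99, 6.43 and 6.57, and the difference was −2.53 ± 1.79 (adjusted p = 0.546 by limma). These 3 had reads in 5 or 6 libraries but reached the level that the filter asks for in fewer. miR-6815-5p reached it in siCTL 1, siCTL 2 and siPRDX3 3, at 0.0548%, 0.0383% and 0.0156% of reads. miR-6894-5p reached it in siCTL 1, 2 and 3 and siPRDX3 2, and miR-6794-3p in siCTL 1 and 2 and siPRDX3 2 and 3. Each difference lay within about 2 of its standard errors.

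The size of each moved with the libraries that stood apart. Without siCTL 1 and siCTL 2 the log2 differences of miR-6815-5p, miR-6894-5p and miR-6794-3p were −2.27, −1.94 and −0.93 (SE 4.10, 3.15 and 2.92), where the lone siCTL 3 is assumed to vary like the siPRDX3 libraries. In that setting the median over all 80 tested entries also lay below 0, at −1.15, with 21.2% of them above 0. Without siCTL 3, a setting in which 20 of the 80 entries passed, they were −6.11, −4.12 and −3.34 (limma adjusted p = 0.0846, 0.124 and 0.117), and 0 of the 3 passed. Under library totals they were −4.08, −2.48 and −1.60, while the median over all tested entries moved from 1.72 to 2.57 and the share of entries above 0 from 63.7% to 73.8%. Relative to that median the 3 members lay lower under both scalings.

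As shares of reads, 0 of the 119 members had groups that did not overlap, against 16 of 686 detected entries with siPRDX3 above (2.33%) and 4 with siCTL above (0.583%). Among the 80 tested entries these shares were 12.5% and 2.5%, and 0 of the 3 tested members was among them. On the deposited values 2 members had siCTL above, against 15 of 686 entries (2.19%), and 0 had siPRDX3 above, against 9 (1.31%). Among the tested entries the deposited values had siCTL above in 8.75%, with 1 of the 3 tested members, and siPRDX3 above in 7.5%, with 0 of the 3. The 2 members were miR-6794-3p, by 6.59 in siCTL 3 against 6.57 in siPRDX3 3, and miR-6865-3p, which had 1 read in each siCTL library. A single read was worth 25, 20 and 7.97 units of the deposited linear scale in siCTL 1, 2 and 3, and 2.97, 7.09 and 6.72 in siPRDX3, so equal read counts gave higher deposited values in siCTL. The groups thus separated in the summed share of reads. For single members the count of 0 says little, since groups can lie apart only where all 3 libraries of a group have reads. The 71 members seen in 1 library and the 30 seen in 2 could not meet this.

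Earlier mirtrons, listed by name for comparison, were few, but those detected were less sparse than the block. They had a median of 23 reads in all against 2 for the members, and 5 of 9 (55.6%) were seen in at least 3 libraries against 15.1% of the members, a difference that was not tested. Of their 23 rows 9 (39.1%) had reads, 0 of these entered the limma fit, and together they took 0.0299%, 0.0482% and 0.0337% of reads in siCTL and 0.209%, 0.0383% and 0.0283% in siPRDX3, so their groups overlapped. miR-877-3p, from an intron-spanning hairpin, was found in all 6 libraries with 4, 2 and 2 reads against 2, 10 and 3. miR-1224-5p had 0, 0 and 22 against 470, 5 and 0, again with most of its reads in 1 library.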

How the data were processed

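Small-RNA libraries of exosomal RNA were compared between siCTL (3 libraries) and siPRDX3 (3), grouped by sample title. Each table deposited by the authors holds log2 values of 1 library. Bowtie2 and bedtools 2.25.0 are listed, without role or order, per the submitters' processing notes. Genome build, miRNA annotation, read filters, scaling and handling of multiply mapped reads were not stated in the labels or tables. The values were taken as log2(x + 1), and x fell on whole multiples of 1 step per library (100% of values of up to 100 reads within 0.1 read), from which reads were recovered; those of abundant entries are approximate. Counts of members, shares and 5p percentages were compared by two-sided exact permutation over libraries. limma 3.58.1 (R 4.3.3, mean-variance trend, no covariate) was fitted to the deposited log2 values of every entry that reached, in at least 3 libraries, the CPM of 10 reads at median size (113), and 15 or more reads over the 6 libraries. Benjamini-Hochberg adjustment ran over all 80. A count test had been planned for raw counts only, so limma was used for these log2 values. The fit was also run on simulated reads with known changes, scaled to library totals and not to the deposited values. Those reads were drawn around 1 mean share per entry and group, unlike the entries found here in a single library. That run therefore does not show how the fit performs on these data. TMM factors for limma-voom were computed from their published formula.

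Named entries are those tested, the 15 with the highest mean share, those in at least 4 libraries and hairpins with both arms; other entries were chosen after their values were seen. Of those named by the rule, 1 entry in at least 4 libraries is not reported here, and most both-arm hairpins are given by range. Members whose hairpin the RefSeq table lacks stay out of the intron counts. Members and lists were chosen with earlier results of these data known. Sequences and hairpin positions come from RefSeq (GRCh38.p14) by name, and host introns from GENCODE release 29 on GRCh38, non-miRNA genes on the same strand. Of the 106 members with a sequence, 3 have more than 1 locus. For 23, among them miR-6834-3p, miR-6836-3p and miR-6748-3p, the mature sequence also lies in an annotated transcript of a type other than miRNA. Transcripts that keep an intron were included in that search. Reads of such entries are uncertain in origin. Alternatives changed the detection limit, depth, denominator, scaling, filter, pseudocount and fit (limma-voom, a block for replicate number) or left out libraries.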

Additional observations from a re-analysis of the deposited data

How the results depend on the processing

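The number of members detected kept its direction in 11 of 12 settings; without siCTL 3 the difference (siPRDX3 minus siCTL) became 6.17, and leaving out each library in turn gave −10.3 to 6.17. The share of reads kept its direction in all 14 settings run, with −0.717 to −0.486 percentage points on leaving out each library. Of these settings 3, which left out leading, non-recurrent or abundant members, were chosen after seeing the data. Without the non-recurrent or without the abundant members the groups overlapped (exact permutation p = 0.3 each). Another setting summed the deposited values (−3.01 in log2), which is not a share, and there a read counts for more in siCTL. The 5p percentage kept its direction in 10 of 10 (4.48 to 11 points on leaving out libraries). Members in at least 3 libraries numbered 18, but 11 when 2 reads were required and 11.8 at equal depth (13 to 17 on leaving out libraries). The limma count was 0 in every setting except without siCTL 3, where 20 entries passed (0 to 20 on leaving out each library), 0 of them members; the cause was not tested. The 3 tested members kept their direction and stayed above the threshold in all 12 settings each in which they were fitted. The filter of 20 reads left 0 members. Some counted settings could not alter a direction. The replicate block leaves a difference in means unchanged, here and in the counts above, and dropping the filter leaves a fold change unchanged. The groups share replicate numbers, but same-numbered libraries deviated together at r = −0.238, 0.177 and 0.14, so the numbers were not taken as pairs. With the replicate block the limma count was 0, and by exact sign-flip permutation the differences were −3 members (p = 0.75), −0.598 points (p = 0.25) and 7.98 points (p = 0.25), where 0.25 is the smallest p that test allows. Depth limits single members: 96 of 119 had fewer than 10 reads in all.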
